A study of Caenorhabditis elegans with 12 samples.

Results

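Nuclear-encoded mitochondrial proteins enter the organelle through protein translocases, and 10 genes of that machinery are described here. They were taken by name from the annotation of the array: timm-23, timm-17B.1, timm-17B.2, tin-44 and scpl-4 of the inner membrane complex TIM23, tomm-40, tomm-20, tomm-22 and tomm-70 of the outer membrane complex TOM, and mppa-1 of the processing peptidase. All 10 were measured, through 15 probe sets that all lay above the filter on low signals, among 17118 genes with a single name on the array and 10385 genes tested. Whole Caenorhabditis elegans were collected as L4 larvae from bleach-synchronised liquid cultures, and one Affymetrix array was hybridised per RNA sample, 12 arrays in all. The groups, of 3 arrays each, were wild type on control RNAi, wild type on spg-7 RNAi, atfs-1(tm4525) on control RNAi and atfs-1(tm4525) on spg-7 RNAi, all in the N2 background and fed the RNAi bacteria. The title of the study concerns whether ATFS-1 directs a protective transcription programme when mitochondria are stressed. The comparisons below give only RNA levels of the import genes by genotype and treatment, and whether any response protects was not tested.

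Precursor proteins first meet receptors of the TOM complex on the mitochondrial surface, pass through its channel, and, if they carry a presequence, are handed to the TIM23 complex, which moves them across the inner membrane; a peptidase in the matrix then removes the presequence. Import links this machinery to atfs-1, a bZIP transcription factor with a mitochondrial targeting sequence that is degraded in mitochondria when import is efficient and goes to the nucleus when import is impaired, where it acts in the mitochondrial unfolded protein response. The gene spg-7 codes for part of a protease complex in the mitochondrial inner membrane, and RNAi against it is widely used to bring about mitochondrial stress in worms. The allele tm4525 is carried in every cell of the mutant, and RNA of whole larvae averages over all tissues, so that fewer cells of a type and less RNA per cell cannot be told apart.

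The probe set of the targeted gene went against the direction of a knockdown. Its signal was 747, 454 and 1057 on the wild-type arrays labelled control RNAi and 13442, 22348 and 7278 on those labelled spg-7 RNAi. The atfs-1(tm4525) arrays gave 385, 450.0 and 313 for control RNAi against 26208, 17698 and 9968 for spg-7 RNAi, so that spg-7 separated the treatments without overlap but as a rise. All directions below follow the labels of the arrays, and "on spg-7 RNAi" stands for the arrays labelled so. The atfs-1 probe set read 523, 386 and 405 on the mutant control arrays against 454, 370.3 and 409 in wild type, and where it lies with respect to the tm4525 lesion was not examined. Germ line markers varied within groups: the summed signal of the 12 oocyte and embryo markers ranged from 5442 to 64145 in wild type on control RNAi, 4908 to 88144 in wild type on spg-7 RNAi, 26080.0 to 47407 in the mutant on control RNAi and 4369.6 to 32249 in the mutant on spg-7 RNAi. Wild-type control replicate 1 had a summed vitellogenin signal of 878 against 89919 and 70944 on replicates 2 and 3. Its summed sperm marker signal was 89081 against 495934 and 521220. On spg-7 RNAi the sperm sums were 228572 to 351176 in wild type, wholly below 465877 to 514170 in the mutant. The part of the sperm marker levels in the genotype differences of the import genes was not tested. Of the 12 oocyte and embryo markers, of 23 major sperm protein genes and of 5 vitellogenins measured of 6 listed, 0 were called between RNAi treatments by limma in either genotype, and no marker of these lists stayed below the filter level on all arrays of a group. RNA quality, read as the log2 excess of the 3' over the 5' probe set for actin, lay at 0.43 to 0.62 in wild-type controls, 0.82 to 0.85 in wild type on spg-7 RNAi, 0.41 to 0.48 in the mutant on control RNAi and 0.54 to 0.69 in the mutant on spg-7 RNAi. It did not overlap between the treatments within a genotype, nor between the genotypes on spg-7 RNAi.

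The comparison of wild type on spg-7 RNAi with wild type on control RNAi asks how the import genes respond to the treatment. Whether the treated worms were under mitochondrial stress was not tested, and the chaperone genes hsp-6 and hsp-60, described below, were not called in wild type. The channel subunit genes timm-23 and timm-17B.1 and the receptor gene tomm-70 rose, by 2.45-fold, 1.93-fold and 2.18-fold, and none of the other 7 genes passed the test. These 3 of 10 genes were called at an adjusted p under 0.05 (limma over 10385 genes, Benjamini-Hochberg), all as rises, whereas 3.29% of all genes tested were called as rises and 4.73% in either direction. The median log2 difference of the 10 genes was 0.52, that of all genes tested -0.04, and 8 of the 10 differences were positive against 46.9% of all genes. Unadjusted, 4 of the 10 had a p under 0.05, against 20.1% of all genes. In a fit to the arrays of wild type alone, with the same log2 differences, all 3 calls ended: the limma adjusted p was 0.167 for timm-23, 0.206 for timm-17B.1 and 0.173 for tomm-70, and 84 of all genes were called against 491.

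**Figure D1:**
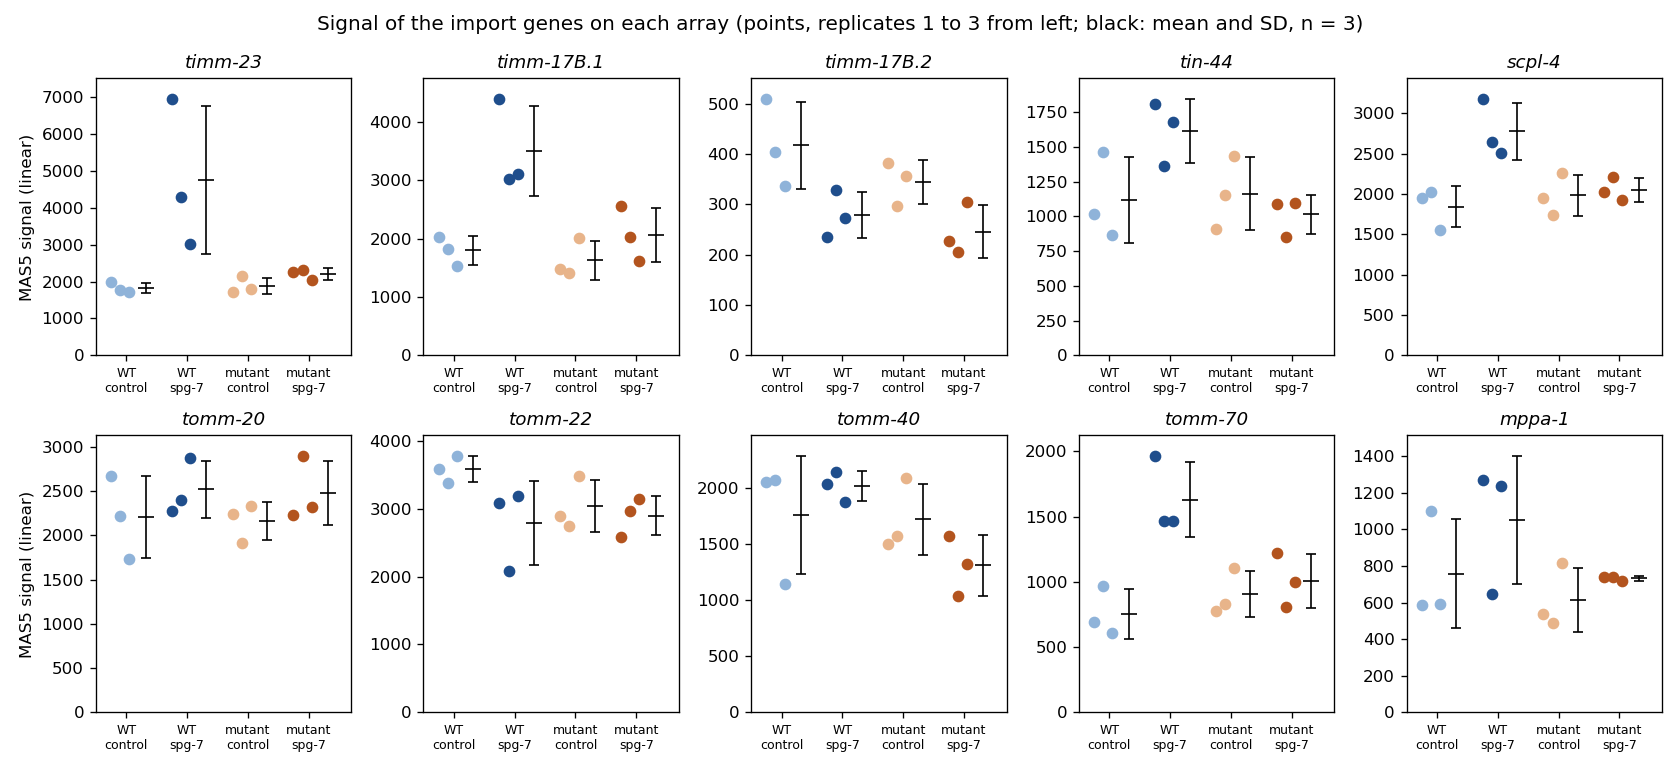
Deposited MAS5 signal (linear scale, y axis from 0) of the brightest probe set of each import gene on the 12 arrays. WT is wild type and mutant is atfs-1(tm4525), each on control or spg-7 RNAi; points are single arrays and the black bar is the mean with its SD (n = 3). For timm-23, timm-17B.1, scpl-4 and tomm-70 all 3 wild-type spg-7 RNAi arrays lie above the 3 wild-type control arrays.

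Among the TIM23 genes, timm-23 encodes the subunit after which the translocase is named. Its signal was 1993, 1772 and 1729.8 on the 3 wild-type control arrays and 6943, 4287 and 3018 on the 3 treated ones. Every treated array was thus above every control array, with replicate 1 the highest and replicate 3 the lowest. The means were 1832 ± 141 and 4749 ± 2003 (SD, n = 3), a log2 difference of 1.29 ± 0.27 (SE) with a limma adjusted p of 0.019. Without control replicate 3 of wild type, or without its treated replicate 2, this call ended, at limma adjusted p values of 0.0684 and 0.0616 and log2 differences of 1.25 and 1.32. Without spg-7 RNAi replicate 1, the brightest array, the log2 difference was 0.98 and the limma adjusted p 0.0379.

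C. elegans has a pair of genes for TIM17, the partner of TIM23 in the inner membrane. For timm-17B.1 the wild-type control arrays read 2034, 1823 and 1536 and the spg-7 RNAi arrays 4393, 3018 and 3106. The groups did not overlap, and replicate 1 was again the brightest treated array. The log2 difference was 0.95 ± 0.25 (SE) with a limma adjusted p of 0.0495, close to the threshold. Of the 12 fits that leave out 1 array, 10 ended this call, at limma adjusted p values of up to 0.172 and log2 differences of 0.78 to 1.05, and it was kept only without wild-type control replicate 1 or atfs-1(tm4525) control replicate 3.

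Its paralogue timm-17B.2 had signals of 509.6, 405 and 337 with control RNAi and 236, 328 and 274 with spg-7 RNAi in wild type. All treated arrays lay below all control arrays, in the direction opposite to timm-17B.1. The log2 difference of -0.57 ± 0.27 (SE) did not pass the test (limma adjusted p = 0.259). The log2 signal of timm-17B.1 minus that of timm-17B.2 within an array was 2.00, 2.17 and 2.19 on the wild-type control arrays and 4.22, 3.20 and 3.50 on the spg-7 RNAi arrays. The mutant gave 1.95, 2.25 and 2.50 with control RNAi against 3.49, 3.30 and 2.41 with spg-7 RNAi. The ratio of the paralogues therefore separated the treatments in wild type, while in the mutant 1 of the 3 treated arrays fell within the control range. This pair was singled out after its values were seen, and its ratio was not tested.

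The gene scpl-4 encodes the C. elegans counterpart of TIM50, which receives presequences on the outer side of the inner membrane. Its signals were 1952, 2028 and 1549.5 with control RNAi and 3179.6, 2645 and 2515 with spg-7 RNAi in wild type. The groups did not overlap, yet the log2 difference of 0.60 ± 0.19 (SE) missed the threshold, with an unadjusted p of 0.0101 and a limma adjusted p of 0.11. The gene tin-44 encodes the counterpart of TIM44, which tethers the import motor to the channel. It read 1019.7, 1461 and 865 with control RNAi and 1808, 1361 and 1675 with spg-7 RNAi. The brightest control array overlapped the treated ones, and the log2 difference was 0.56 ± 0.26 (SE, limma adjusted p = 0.251).

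In the TOM complex, tomm-70 encodes a receptor for precursors with internal targeting signals, such as carrier proteins. Its signals were 693, 968 and 605 on the wild-type control arrays and 1964, 1462 and 1464 on the spg-7 RNAi arrays. The groups did not overlap, and the log2 difference was 1.12 ± 0.26 (SE) with a limma adjusted p of 0.0309. Wild-type control replicate 3 and treated replicates 1 and 2 each decided the call: without them the limma adjusted p was 0.12, 0.0921 and 0.0751, at log2 differences of 0.98, 0.98 and 1.20. It was also lost, with the log2 difference itself unchanged, without mutant control replicate 2 or mutant spg-7 RNAi replicate 3, at limma adjusted p values of 0.0513 and 0.051.

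The other TOM genes gave small differences. The presequence receptor gene tomm-20 read 2664, 2220.3 and 1734 with control RNAi and 2272, 2402 and 2873 with spg-7 RNAi, overlapping groups with a log2 difference of 0.20 (95% confidence interval -0.26 to 0.67). The gene of the channel itself, tomm-40, read 2052, 2077 and 1149.6 under control RNAi against 2035, 2140.3 and 1879 under spg-7 RNAi, with a log2 difference of 0.25 (95% interval -0.34 to 0.83). The central receptor gene tomm-22 went the other way: 3589.8, 3383 and 3771 on control RNAi against 3089, 2077 and 3191 on spg-7 RNAi. Its treated arrays all lay below the control arrays, but the log2 difference of -0.39 ± 0.21 (SE) did not pass the test (limma adjusted p = 0.33). The intervals for tomm-20 and tomm-40 do not reach the differences measured for timm-23 and tomm-70. Those differences have 95% intervals of their own, 0.71 to 1.87 and 0.56 to 1.69, and both overlap the interval of tomm-40. Differences between genes were not tested.

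The gene mppa-1 encodes the alpha subunit of the peptidase that cleaves presequences. Its wild-type signals were 587, 1100.4 and 590.3 with control RNAi and 1268, 646 and 1239 with spg-7 RNAi. Each group held 1 array in the range of the other group, and the log2 difference was 0.47 ± 0.34 (SE, limma adjusted p = 0.489). Of the 10 genes, mppa-1 also varied most between replicates, with a within-group SD of 0.43 log2 over all 4 groups; those of the other 9 ranged from 0.17 for scpl-4 to 0.32 for timm-23, against a median of 0.45 over all genes tested.

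In all, 4 of the 10 genes had wild-type spg-7 RNAi arrays wholly above the control arrays, where 9.99% of all genes did, and 2 had them wholly below, where 8.48% did. Within the treated wild-type group, 6 of the 10 genes were highest on replicate 1. That array also had the lowest summed oocyte and embryo marker signal of the group, 4908 against 44758 and 88144, and the highest sum of the 4 intestine markers, 21295 against 11685 and 8120.4. Of these intestine markers ges-1 was called in wild type (log2 difference 1.55, limma adjusted p = 0.0393), and elt-2, ifb-2 and act-5 were not. With the median level of the oocyte and embryo markers added to the model, an alternative chosen after the data were seen, the log2 differences of timm-23, timm-17B.1 and tomm-70 were 1.35, 0.98 and 1.12 (limma adjusted p = 0.00112, 0.0142 and 0.0144), and scpl-4 was called as well, at 0.61 (adjusted p = 0.0438), in a fit that called 1307 of all genes against 491. With the actin 3' to 5' ratio as a covariate, also chosen afterwards, they were 1.56, 0.85 and 0.73 and none was called (limma adjusted p = 0.413 to 0.79); 7 genes of all 10385 were called in that fit, in which the ratio moves with the treatment. The body wall muscle markers unc-54, myo-3, unc-15 and unc-22 had a median log2 signal of 12.65, 11.83 and 12.40 on the wild-type control arrays. On the treated ones it was 11.77, 11.58 and 10.68, so that by medians all treated arrays lay below all controls. By summed signal the wild-type groups overlapped, at 44431, 27360 and 45252 on control RNAi against 30109, 27103 and 14794 on spg-7 RNAi. In the mutant the medians were 12.19, 12.19 and 11.88 against 12.04, 12.06 and 11.93, which overlap, and limma called 0 of the 4 muscle markers in either genotype. The part of the intestine and muscle marker levels in the differences of the import genes was not tested.

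The comparison within atfs-1(tm4525) asks whether the import genes respond to spg-7 RNAi when atfs-1 is mutated. None of the 10 passed the test: limma called 0 at an adjusted p under 0.05, and 0 had an unadjusted p under 0.05, whereas 1.17% of all genes tested were called and 9.47% had an unadjusted p under 0.05. This fit shares 1 estimate of the spread over all groups. Replicate arrays correlated at 0.94 to 0.97 (control) and 0.90 to 0.95 (spg-7 RNAi) in the mutant, and at 0.76 to 0.92 and 0.81 to 0.91 in wild type. In a fit to the mutant arrays alone, limma called 0 of the 10 and 320 of all genes, against 121. The signal of timm-23 was 1713, 2139 and 1798 on the mutant control arrays and 2263, 2315 and 2028 after spg-7 RNAi in the mutant, a log2 difference of 0.23 with a 95% interval of -0.35 to 0.81. The highest control array lay within the treated range. For timm-17B.1 the arrays read 1474, 1409 and 2017 under control RNAi against 2551, 2022 and 1623 under spg-7 RNAi, overlapping groups with a log2 difference of 0.33 (95% interval -0.20 to 0.87). For tomm-70 they read 780.2, 827 and 1107 under control RNAi against 1217, 806 and 996 under spg-7 RNAi, also overlapping, with a log2 difference of 0.15 (95% interval -0.42 to 0.72). With array weights estimated from the data, timm-17B.1 was called in the mutant, at a log2 difference of 0.65 (limma adjusted p = 0.0235), but that setting called 1532 of all 10385 genes in the mutant response against 121 without weights, a larger share than 1 of 10.

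The paralogue timm-17B.2 gave the log2 difference furthest from 0 among the 10 in the mutant, -0.50 ± 0.27 (SE, limma adjusted p = 0.593). It read 382, 297 and 357 with control RNAi and 226, 205 and 306 with spg-7 RNAi, with 1 treated array above the lowest control array. The channel gene tomm-40 was at 1500.2, 1577 and 2088 under control RNAi against 1577, 1037 and 1319.7 under spg-7 RNAi, a log2 difference of -0.40 ± 0.27 (SE, limma adjusted p = 0.667). The other 5 genes lay between -0.18 for tin-44 and 0.29 for mppa-1. The median over the 10 was 0.10, against -0.02 over all genes tested, and 0 of the 10 had groups that did not overlap, where 13.1% of all genes had treated arrays wholly above and 12.7% wholly below the controls.

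**Figure D2:**
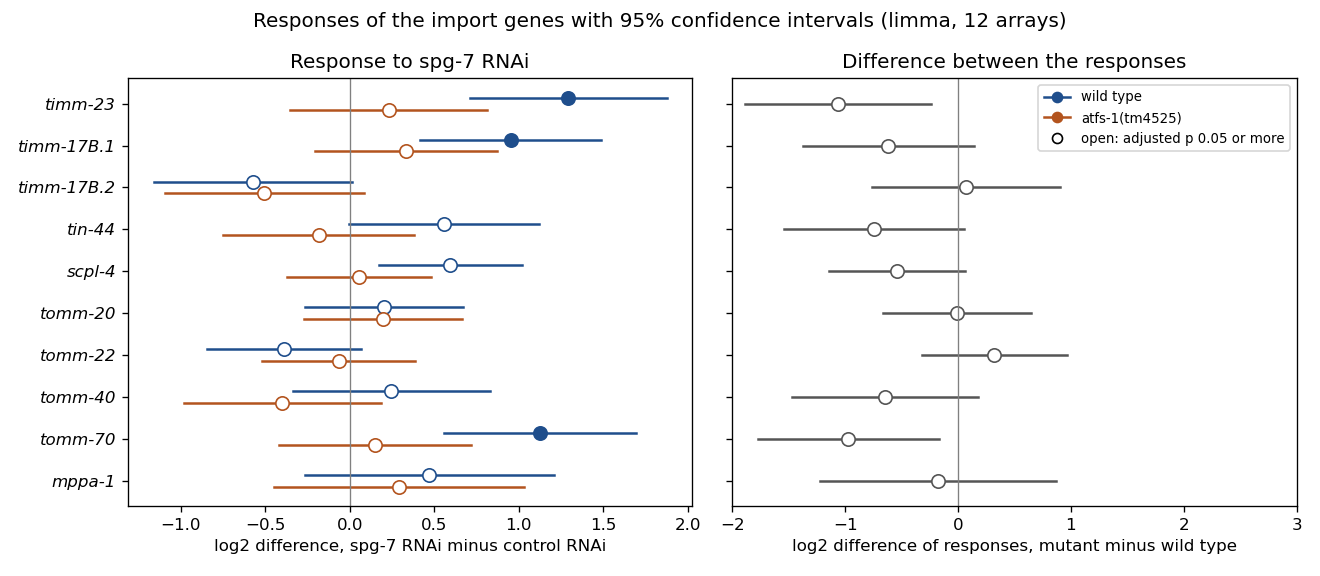
Log2 differences (x axes) of the 10 import genes (y axis) with 95% confidence intervals from limma over 12 arrays: left, spg-7 RNAi minus control RNAi in wild type (blue) and in atfs-1(tm4525) (orange); right, the mutant response minus the wild-type response. Filled points have an adjusted p under 0.05, which holds for timm-23, timm-17B.1 and tomm-70 in wild type; in the right panel the intervals of timm-23 and tomm-70 lie below 0 but neither passed the test over all genes.

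Whether the responses differ between genotypes was tested directly as the mutant response minus the wild-type response. No import gene passed that test after adjustment, and limma called 0 of all 10385 genes, so a call in wild type beside none in the mutant does not show that the responses differ. Unadjusted, 2 of the 10 genes had a p under 0.05, both with the smaller response in the mutant; of all genes tested, 6.23% had such a p, 2.13% in that direction. For timm-23 the difference of responses was -1.06 ± 0.38 (log2, SE; 95% interval -1.89 to -0.24), with a limma p of 0.0157 and an adjusted p of 0.714. For tomm-70 it was -0.97 ± 0.37 (95% interval -1.78 to -0.17), with a limma p of 0.0214 and an adjusted p of 0.714. For timm-17B.1 the 95% interval of -1.38 to 0.14 included 0, and for timm-17B.2, at 0.07, it ran from -0.76 to 0.90. The median over the 10 was -0.58 and that over all genes -0.01. Of the 10 values 8 were below 0, the exceptions being timm-17B.2 and tomm-22. All these values are of the brightest probe sets. In the fit over all 13529 probe sets, the further probe set of timm-17B.1 gave -1.01 ± 0.30 (SE), against -0.62 ± 0.35 for its brightest. For timm-23 the further one gave -0.70 ± 0.40 against -1.06 ± 0.38. Those of scpl-4, tomm-20 and tomm-40 gave 0.02, 0.33 and -0.07. The size of the difference thus depended on the probe set, and no further probe set passed the test after adjustment.

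Between the genotypes on control RNAi, no import gene passed the test. Limma called 0 of the 10 and 0 of all genes in this comparison, and 0 of the 10 had an unadjusted p under 0.05 against 10.7% of all genes. The log2 differences, mutant minus wild type, ran from -0.28 for mppa-1 to 0.27 for tomm-70, 5 of them positive; with each array centred on its median 1 was, and the median of all genes moved from -0.02 to -0.15. By these values, which are of the brightest probe sets, all 10 pairs of groups overlapped, where 11.8% of all genes had mutant arrays wholly above and 5.79% wholly below the wild-type arrays. The further probe set of tomm-20 had mutant arrays wholly below, at a log2 difference of -0.41 (limma adjusted p = 0.579). Those of timm-23, timm-17B.1, scpl-4 and tomm-40 had overlapping groups, at -0.07, 0.17, -0.18 and 0.04. For timm-23 the difference was 0.04 with a 95% interval of -0.55 to 0.62.

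On spg-7 RNAi, too, no import gene passed: limma called 0 of the 10 in the comparison of the mutant with wild type, against 0.0963% of all genes. Unadjusted, 6 of the 10 had a p under 0.05, all lower in the mutant, where 15.4% of all genes had such a p and 4.24% in that direction. By their brightest probe sets the same 6 genes, timm-23, timm-17B.1, tin-44, scpl-4, tomm-40 and tomm-70, had mutant arrays wholly below the wild-type arrays. This held for 7.29% of all genes, and 0 of the 10 had them wholly above, against 15.7%. The further probe set of timm-17B.1 also lay wholly below, at a log2 difference of -0.85. Those of timm-23 (-0.77), scpl-4 (-0.17) and tomm-40 (-0.03) had overlapping groups, so the separation of these genes depended on the probe set. For timm-23 the log2 difference was -1.03 ± 0.27 (SE, limma adjusted p = 0.14) and for timm-17B.1 -0.77 ± 0.25 (adjusted p = 0.192). For tomm-70 it was -0.70 ± 0.26, for tin-44 -0.67 ± 0.26, for tomm-40 -0.64 ± 0.27 and for scpl-4 -0.43 ± 0.19, with limma adjusted p values of 0.23 to 0.315. The receptors tomm-20 and tomm-22 differed by -0.02 and 0.08. With the oocyte and embryo markers in the model, timm-23 and timm-17B.1 passed, at limma adjusted p values of 0.0125 and 0.0483, in a fit that called 611 of all genes (506 of them higher in the mutant) against 10 without the markers. With array weights timm-23 passed, at -1.01 (limma adjusted p = 0.0151), where 710 of all genes were called. Centring each array on its median moved the median of all genes in this comparison from 0.00 to -0.22, and that of the 10 genes from -0.55 to -0.78. This comparison shares the wild-type spg-7 RNAi arrays with the wild-type response, so the values are not independent of those above.

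By group mean, 8 of the 10 genes were highest in wild type on spg-7 RNAi, as were 34.8% of all genes tested, and timm-17B.2 and tomm-22 were highest in wild type on control RNAi. For timm-23 the order from low to high was wild type on control RNAi (1832 ± 141), mutant on control RNAi (1883 ± 225), mutant on spg-7 RNAi (2202 ± 153) and wild type on spg-7 RNAi (4749 ± 2003), each as mean signal ± SD over 3 arrays. The ranges of neighbouring groups in this order overlap up to the mutant on spg-7 RNAi, and only wild type on spg-7 RNAi stood apart. For tomm-70 the order was the same, at 755 ± 189, 905 ± 177, 1006 ± 206 and 1630.3 ± 289, again with overlap among the lower groups. For timm-17B.1 the mutant on control RNAi (1633 ± 334) was lowest, below wild type on control RNAi (1798 ± 250.2) and the mutant on spg-7 RNAi (2065 ± 466), whose ranges overlap, and wild type on spg-7 RNAi (3506 ± 769) was highest.

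Averaged over both genotypes, the response to spg-7 RNAi passed the test for 2 of the 10 genes, both as rises, where 4.97% of all genes were called as rises and 7.13% in either direction. These were timm-23, at 0.76 ± 0.19 (log2, SE; limma adjusted p = 0.0331), and timm-17B.1, at 0.64 ± 0.17 (adjusted p = 0.0474). Each was lost in most fits without 1 array, 9 of 12 for timm-23 and 8 of 12 for timm-17B.1, at limma adjusted p values of up to 0.0888 and 0.124, while their log2 values stayed at 0.60 to 0.90 and 0.56 to 0.72. For tomm-70 the averaged difference was 0.64 ± 0.18 (SE) with an adjusted p of 0.0589. For timm-17B.2 it was -0.54 ± 0.19 (SE), with an unadjusted p of 0.0155 and a limma adjusted p of 0.116. This average uses the same arrays as the responses within each genotype and adds no independent data.

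A pair of probe sets was available for 5 of the genes, and these were compared in a fit over all 13529 probe sets, in which 4.22% were called in the wild-type response and 0.887% in the mutant response. For timm-23 the further probe set read 1934, 1436 and 2160.2 in wild type with control RNAi and 5352, 3955 and 2453 with spg-7 RNAi, again without overlap. Its log2 difference was 1.04 ± 0.28 (SE) with a limma adjusted p of 0.0613, and that of the brightest probe set had an adjusted p of 0.0202 in this fit. In the mutant the further probe set gave 0.33 (adjusted p = 0.74), although its treated arrays all lay above its control arrays. It is marked s, a type whose probes can match transcripts of more than 1 gene.

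For timm-17B.1 the further probe set, also of type s, read 1021, 1304 and 1473 with control RNAi and 3291, 3324 and 2617 with spg-7 RNAi in wild type. Its log2 difference of 1.29 ± 0.21 (SE) was called (limma adjusted p = 0.00567), whereas the brighter probe set of the same gene was not in this fit (adjusted p = 0.0536). In the mutant it gave 0.28 (adjusted p = 0.719). The probe sets of scpl-4 disagreed in size: the further one gave 0.18 ± 0.25 in wild type, with overlapping groups, against 0.60 for the brightest. For tomm-20 and tomm-40 the further probe sets gave -0.02 and 0.10 in wild type and 0.31 and 0.03 in the mutant, none of them called. The treated mutant arrays of the further tomm-20 probe set all lay above its mutant control arrays. In the mutant 0 of the 15 probe sets were called. The remaining 5 genes were read by 1 probe set each, of type s for tin-44 and mppa-1. Both probe sets of tomm-20 and the one read for atfs-1 are also of type s.

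**Figure D3:**
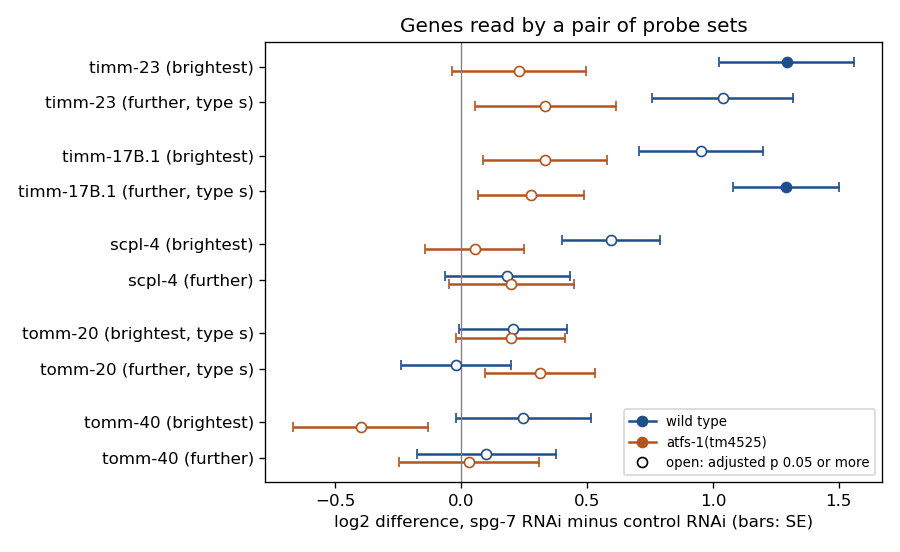
Log2 difference between spg-7 RNAi and control RNAi (x axis, bars are SE from limma over all 13529 probe sets) for the 5 import genes with a pair of probe sets (y axis), in wild type (blue) and atfs-1(tm4525) (orange). Both probe sets of timm-23 and both of timm-17B.1 lie at 0.95 to 1.29 in wild type and at 0.23 to 0.33 in the mutant; filled points have an adjusted p under 0.05.

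Other genes of mitochondrial import were taken from a list of 24 names, of which 20 were tested: small TIM chaperones, the import motor with its chaperones, the sorting machinery of the outer membrane, peptidases and others. In the wild-type response 1 of these 20 was called, as a rise, a share near the 4.73% of all genes called. In the mutant response 0 of the 20 were called and 0 had an unadjusted p under 0.05, against 1.17% and 9.47% of all genes. The median log2 difference over the 20 was 0.17 in wild type, and in the mutant it was 0.04. The called gene was F56C11.3, a counterpart of the sulfhydryl oxidase that drives import into the intermembrane space in yeast and mammals. Its probe set is of type s. It read 373, 363 and 308 with control RNAi and 812, 826 and 1001 with spg-7 RNAi in wild type. The groups did not overlap, and the log2 difference was 1.34 ± 0.21 (SE, 2.52-fold, limma adjusted p = 0.00445), a call kept in all 12 fits without 1 array but lost in the fit to the compared groups and with the actin ratio as a covariate (adjusted p = 0.108 and 0.409).

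In the mutant F56C11.3 read 352, 388 and 401 under control RNAi against 407, 491 and 457 under spg-7 RNAi, with all treated arrays above all controls here too. The log2 difference was 0.25 ± 0.21 (SE, limma adjusted p = 0.714), and the difference of responses of this gene was -1.09 ± 0.30 (adjusted p = 0.598). The next largest differences of the list in wild type belonged to chaperone and motor genes. C34C12.8, a GrpE-like exchange factor of the matrix chaperone, read 1828, 2183 and 2290.1 with control RNAi and 3567, 3395 and 2958 with spg-7 RNAi, without overlap, at a log2 difference of 0.66 ± 0.19 (SE) that missed the threshold (limma adjusted p = 0.0695). The mitochondrial J-domain gene dnj-10 gave 0.61 ± 0.34 (limma adjusted p = 0.359) and F45G2.8, the counterpart of the motor subunit PAM16, 0.58 ± 0.30 (0.301). The chaperone genes hsp-6 and hsp-60 of the list gave 0.44 ± 0.29 and -0.49 ± 0.26 in wild type, with overlapping groups (limma adjusted p = 0.447 and 0.323). In the mutant they gave 0.23 ± 0.29 and -0.33 ± 0.26 (limma adjusted p = 0.782 and 0.696). There the groups overlapped for hsp-6, and for hsp-60 all treated arrays lay below all controls. The names tomm-5, tim-16, immp-1 and C01A2.3 had no probe set with that single gene name and were not analysed here; tim-16 is also a name for PAM16, so that this entry may be the gene measured as F45G2.8.

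**Figure D4:**
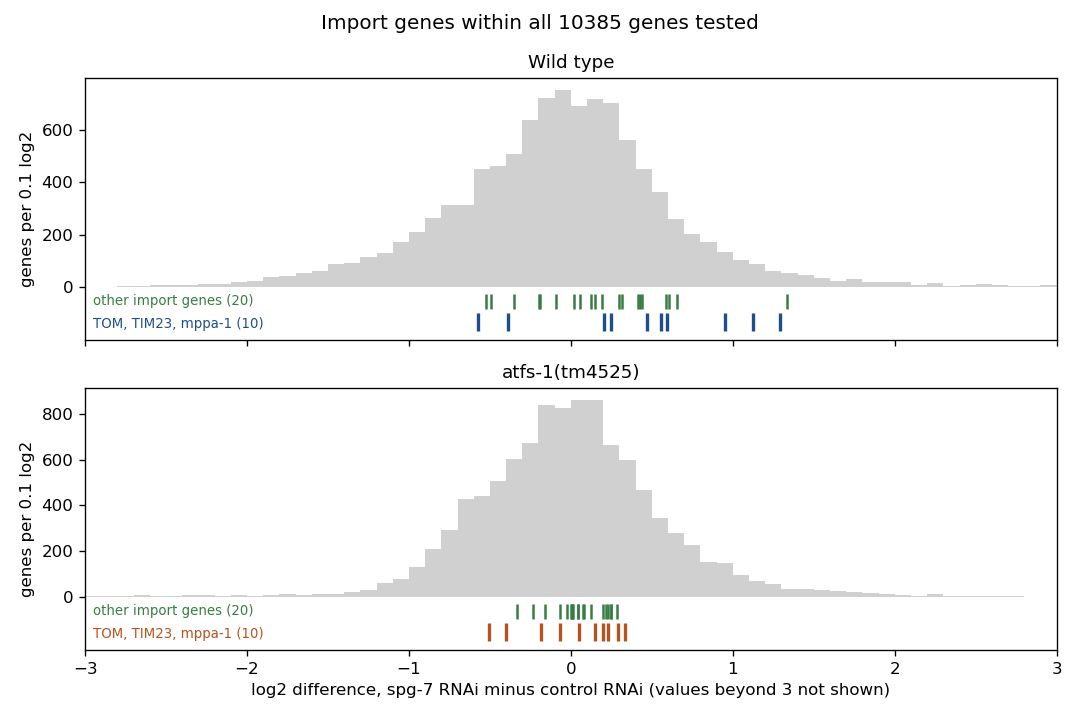
Number of genes (y axis) by log2 difference between spg-7 RNAi and control RNAi (x axis) for all 10385 genes tested, in wild type (top) and atfs-1(tm4525) (bottom), with the 10 genes of TOM, TIM23 and mppa-1 (lower ticks) and the 20 other import genes (upper ticks). In wild type the lower ticks reach from -0.57 to 1.29, and in the mutant from -0.50 to 0.33.

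The genes whose 4 group means, centred on their own average, lay nearest to those of timm-23 among all genes tested were C34F11.8, F56C11.3 and tsfm-1, at Euclidean distances of 0.03, 0.09 and 0.13 on the log2 scale over 4 groups. All of these were read by probe sets of type s. The gene tsfm-1, named for a mitochondrial elongation factor, had a log2 difference of 1.26 in wild type (limma adjusted p = 0.00921) and 0.39 in the mutant (0.618). C34F11.8 had 1.29 in wild type with an SE of 0.55 and was not called (limma adjusted p = 0.219). Of the import genes, timm-17B.1 at 0.26 and tomm-70 at 0.31 were nearest to timm-23, and timm-17B.2 at 1.44 and tomm-22 at 1.27 were furthest. These distances describe likeness of group means only and take no account of the spread between replicates.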

How the data were processed

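RNA of 12 samples was measured on Affymetrix C. elegans arrays. The deposited values are probe-set signal intensities on a linear scale; per the submitters' processing notes they come from MAS5, with settings not given in the sources used here. The trimmed mean without the lowest and highest 2% was 500.1 to 500.2 on every array, and median signals were 112 to 159. No detection calls or raw scans were used here.

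Of 22625 probe sets, 77 controls were set aside. Signals under 1 were set to 1 and log2 was taken. Probe sets in the bottom 40% by mean log2 signal (under 6.25, a signal of 76.0) were dropped, leaving 13529; of those annotated with 1 gene name, the brightest stood for the gene, giving 10385 genes. A model with 1 mean per group was fitted with limma 3.58.1 in R 4.3.3, with a variance trend. It gave 6 comparisons, with p-values adjusted by Benjamini-Hochberg over all genes of a comparison and called under 0.05. SE and intervals come from this model. Array number limits precision. The labels call the replicates biological. Calling was tested on simulated data. Figures used matplotlib 3.10.9 in Python 3.11.15.

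The members and the lists were chosen with earlier results of these data known. Named were all 10 members, spg-7 and atfs-1, every called gene of the longer import list and the 4 of that list with the largest absolute difference in wild type (the called F56C11.3 is 1 of these), and the 3 genes nearest to timm-23. The intestine and muscle markers, and hsp-6 and hsp-60 of the longer list, were named after their values were seen. Alternatives were quantile normalisation, centring on the median, adding 32, no or a 60% filter, other choices of probe set, array weights, a fit to the compared groups, no trend, the replicate number as a block, stricter thresholds, arrays left out and, chosen after seeing the data, the marker level or the actin ratio as a covariate and another estimator of the array weights.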

Additional observations from a re-analysis of the deposited data

How the results depend on the processing

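Over 29 alternatives, no called difference changed direction. The 55 member differences that were not called gave 1559 recomputed values, of which 19 were called and 68 changed sign without a call. The 3 genes called in wild type became 5 with array weights, 0 in a fit to the compared groups, 0 at an adjusted p under 0.01, 1 without both replicate 1 arrays of wild type and 0 with the actin ratio as a covariate, and ranged from 0 to 3 without single arrays. The 2 called in the averaged response became 5 with array weights, 1 with no filter, 1 with no variance trend, 0 at an adjusted p under 0.01, 0 with at least 2-fold, 1 without both replicate 1 arrays and 0 with the actin ratio, and ranged from 0 to 2 without single arrays. The 0 called in the mutant response and in the mutant against wild type on spg-7 RNAi each became 1 with array weights, and the latter 2 with the marker covariate; over all genes, 121 and 10 calls in these comparisons became 1532 and 710 with array weights and 182 and 611 with the marker covariate. The default estimator of the array weights stopped before its convergence tolerance; a gene-by-gene estimator, added after these values were seen, gave the same counts of 5, 1, 0, 0, 1 and 5 members in the 6 comparisons. The causes were not tested, except that a stricter threshold by its construction adds no calls. The wild-type call of timm-23 was kept in 24 of 29 alternatives, with log2 differences of 0.98 to 1.58, that of tomm-70 in 20 and that of timm-17B.1 in 12. Over all genes, 491 calls in wild type became 84 in a fit to the compared groups, 154 at an adjusted p under 0.01, 1785 with array weights, 1307 with the marker covariate and 7 with the actin ratio, and ranged from 222 to 1039 without single arrays. The 1039 came without wild-type control replicate 1, which also raised the 10 of the mutant against wild type on spg-7 RNAi to 587 and the 740 of the averaged response to 1638; without both replicate 1 arrays these 3 counts were 710, 292 and 1454. In a fit to the compared groups the 121 of the mutant response became 320. The 0 in the difference of responses became 96 with array weights. Centring moved the median of all genes in the wild-type response from -0.04 to 0.08. With the replicate number as a block the member counts stayed at 3, 0, 0, 0, 0 and 2. The deviations of same-numbered arrays correlated at -0.66 to 0.66 over 18 pairs, with a median of 0.12. Those of differently numbered arrays correlated at -0.73 to 0.65 over 36 pairs, with a median of -0.11. These wide ranges cannot decide whether the numbers pair the samples, and the reported fit does not pair them. Signals of the 10 genes were above the filter level, and the number of arrays sets the limit on precision.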
